A study of Mus musculus with 10 samples.

Results

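The comparison set mice given the microRNA miR-29b against mice given a control microRNA (NC-miR), both examined on day 4 of dextran sodium sulfate (DSS) colitis. Its members were the annotated features above the lower limit of the data, here called the floor, in both libraries of either group. These numbered 12653 of 23284 features. The series sequenced the mRNA of excised colorectum from 7-week-old BALB/c mice, with 2 libraries in each of 5 groups. The miR-29b mice received 2% DSS and had miR-29b, carried by super carbonate apatite (sCA, a pH-sensitive nanoparticle carrier for nucleic acids), given by tail vein on days 1, 2 and 3, with tissue taken on day 4. The NC-miR mice shared the strain, the age, the DSS, the carrier, the injections and the day, so that the microRNA was the labelled difference. The other groups of the fit were miR-29a mice (otherwise treated as the miR-29b mice), NC-miR mice examined on day 2, and normal mice without treatment (day 0). For the day 2 libraries the labels state injections up to day 3 although tissue was taken on day 2, a contradiction that was not resolved. Those libraries enter the estimate of the spread, the finding of the floor and the choice of features tested, but none of the differences given. Titles and descriptions give the same day for every NC-miR library. Each label describes a sample of its own, but none says whether a library holds 1 mouse or several, so the p-values measure the spread between these samples, which may be partly technical.

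MicroRNAs guide the RNA-induced silencing complex to messenger RNAs that pair with the seed, the bases 2 to 8 of the microRNA, mostly in the 3′ untranslated region (UTR). The targeted mRNA is then translated less and often degraded. The miR-29 family is known for repressing collagens, elastin and other matrix genes, and the enzymes that write and erase DNA methylation. DSS damages the colonic epithelium and sets off inflammation in the mucosa.

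The mature sequences of the family are shown because the seed decides which mRNAs could be targets. They are from RefSeq (GRCm38.p6), with the seed in capitals.
mmu-miR-29b-3p: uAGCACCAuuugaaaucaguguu
mmu-miR-29a-3p: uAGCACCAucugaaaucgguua
mmu-miR-29c-3p: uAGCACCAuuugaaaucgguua
All 3 members share 1 seed, so the injected miR-29b and miR-29a would pair with the same 7-base match in a UTR. The mature miR-29b is encoded at 2 places, chr6:31063025-31063047 (minus strand, Mir29b-1) and chr1:195037091-195037113 (plus strand, Mir29b-2), while miR-29a lies at chr6:31062673-31062694 (minus strand). The sites below are the first seed matches, in capitals, in the 3′ UTRs of known target genes (GENCODE vM21 transcripts, GRCm38, sense strand, 30 bases each).
Col1a1: ggggtgggaaggaatttcTGGTGCTataga
Col3a1: aacttcaaaatgtctcaaTGGTGCTataat
Col4a1: tctgccaccgtcacaacaTGGTGCTactcc
Eln: tcgcgacctcatcaacgtTGGTGCTactgc
Dnmt3a: tacatcccgacttcataaTGGTGCTttcaa
Mcl1: aggctagagtcttaaccaTGGTGCTattca
The genes lie at chr11:94936224-94953042 (Col1a1, plus strand), chr1:45311538-45349706 (Col3a1, plus), chr8:11198423-11312826 (Col4a1, minus), chr5:134702593-134747323 (Eln, minus), chr12:3806007-3914443 (Dnmt3a, plus) and chr3:95658788-95663176 (Mcl1, plus). Their UTRs held 1 match in Col1a1, Col3a1, Col4a1 and Mcl1, 3 in Eln and 5 in Dnmt3a. The libraries were made from mRNA, so they did not measure the injected microRNA itself. The features Mir29a, Mir29b-1 and Mir29b-2 lay at the floor in all 10 libraries.

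Known miR-29 targets showed no shared shift towards lower values under miR-29b. A deposited value is the log2 of a gene's level over that gene's own baseline, so values compare libraries, never genes. Col1a1, a chain of type I collagen, had 0.01 and 0.27 in the miR-29b libraries, against 0.12 and -0.39 in the NC-miR libraries. Its log2 difference was 0.27 ± 0.22 (limma standard error, 2 libraries a group, adjusted p = 0.598). Col3a1, the type III collagen chain, had 0.10 and -0.01 with miR-29b, against 0.26 and -0.14 with NC-miR. In both genes the groups overlapped, and the low library was NC-miR replicate 2. The log2 differences were -0.01 ± 0.17 in Col3a1, 0.03 ± 0.17 in Col4a1 of basement membrane and 0.20 ± 0.26 in the elastin gene Eln. The DNA methyltransferase Dnmt3a differed by -0.03 ± 0.22 and the survival gene Mcl1 by -0.09 ± 0.15 on the log2 scale, each less than its standard error. Tet1, a methylcytosine dioxygenase, lay at the floor in all 10 libraries.

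No member of the 4 target lists passed the test. Of 30 listed matrix targets, 21 were members, 15 of them higher and 6 lower, with a median log2 difference of 0.15 beside 0.022 over all members. The highest were Mmp2, a gelatinase (log2 difference 0.39 ± 0.16, adjusted p = 0.393), and Col16a1 (0.39 ± 0.19, adjusted p = 0.422). With a trend on GC content and length removed (described below), the matrix median was 0.04, Mmp2 0.23 and Col16a1 0.15, on a median transcript GC content of 55.3%. The lowest was Col4a5, another basement membrane collagen, at -0.35 ± 0.17 (adjusted p = 0.425). Without NC-miR replicate 2 the matrix median was -0.15, and without NC-miR replicate 1 it was 0.37, so the sign of this median rested on 1 library. Without miR-29b replicate 1 it was 0.07, and 0.17 without replicate 2. The medians were -0.03 for 5 DNA methylation targets, 0.04 for 18 growth and survival targets and -0.10 for 4 immune targets. Those 3 medians lay between -0.19 and 0.12 when any 1 of the 4 libraries was left out. The immune targets include the interferon receptor chain Ifnar1, at -0.07 ± 0.13.

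Over all members with a 3′ UTR of at least 30 bases (11921), 10315 held no seed match, 1365 held 1 and 241 held 2 or more. Their median log2 differences were 0.033, -0.045 and -0.10. For 2 or more matches the median deposited value was 0.018 and -0.131 in miR-29b replicates 1 and 2, against 0.039 and 0.033 in the NC-miR libraries, so miR-29b replicate 2 was the low library. Genes with more matches had longer UTRs, with median lengths of 831, 2113 and 3498 bases. In 3 bins of UTR length, members with a match and members without had medians of 0.166 and 0.135 (shortest bin), 0.036 and 0.036, and -0.108 and -0.097 (longest bin). With GC content and length removed, the medians for 0, 1 and 2 or more matches were 0.0, 0.012 and 0.026. Within each bin of UTR length, the median log2 differences with and without a match differed by little. The bins matched length only roughly, with median UTRs of 3104 bases with a match and 2392 without in the longest bin. Among the members with the most matches, AI414108 (8 matches) differed by 0.16 and Agpat5 (6 matches), an acyltransferase of lipid synthesis, by -0.27 on the log2 scale. The 6 members with 5 matches lay between -0.26 (Tet2) and 0.10 (D1Ertd622e).

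No feature passed the test between miR-29b and NC-miR at an adjusted p under 0.05 (0% of 13051 tested, in either direction), and the smallest adjusted p was 0.093. At an unadjusted p under 0.05 there were 1627 features (12.5%), of which 873 were higher with miR-29b (6.69%) and 754 lower (5.78%). The values of both miR-29b libraries lay above both NC-miR values in 2961 features (22.7%) and below both in 2551 (19.5%), and the log2 difference was above 0 in 53%. Differences of 1 or more on the log2 scale were found in 165 members, 81 higher and 84 lower. The median standard error was 0.18. Since nothing passed, the genes and lists below are described by their values, and counts at an unadjusted p are read against these shares.

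**Figure D1:**
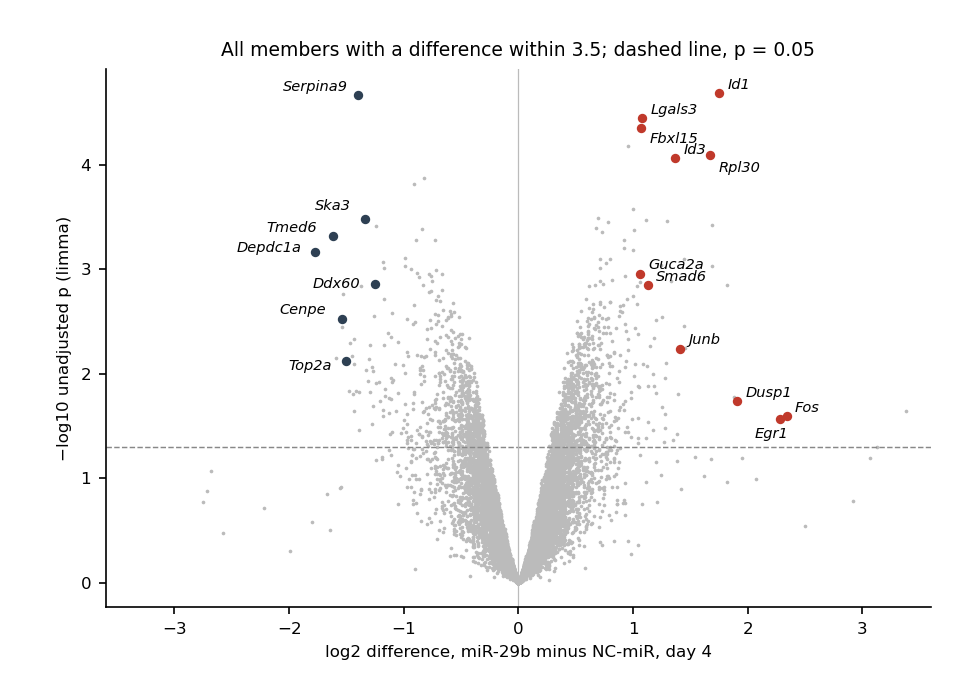
The horizontal axis is the log2 difference, miR-29b minus NC-miR on day 4, and the vertical axis is the −log10 of the unadjusted limma p, with 1 grey point per member whose difference lies within the plotted range and the named genes in red (higher) or dark blue (lower). Id1 and Serpina9 stand at the top on either side, while Fos and Egr1 have large differences, 2.34 and 2.28, with p close to the dashed line.

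The log2 differences moved with the base composition and length of the transcripts. Across 12529 members (genes are not independent replicates), Spearman's rho of the log2 difference was 0.59 with GC content and -0.38 with transcript length. In the lowest of 5 equal bins of GC content (31.0 to 44.6%) the median log2 difference was -0.22, and 0.9% of members were higher and 19.7% lower at an unadjusted p under 0.05. In the highest bin (56.0 to 72.9%) the median was 0.25, with 19.1% higher and 0.2% lower. By library, rho of the deposited value with GC content was 0.26 and 0.47 in miR-29b replicates 1 and 2, 0.12 and -0.04 in the miR-29a libraries, and -0.18 and -0.42 in NC-miR replicates 1 and 2. So all 4 libraries carried the pattern, most strongly the second replicate of each group. With a smooth trend on GC content and length removed from each library, 0 features passed while 880 of 12915 features (6.81%) reached an unadjusted p under 0.05, 453 higher (3.51%) and 427 lower (3.31%). Corrected values, with this trend removed, are given below for most of the genes and lists named. What produced the trend was not tested.

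**Figure D2:**
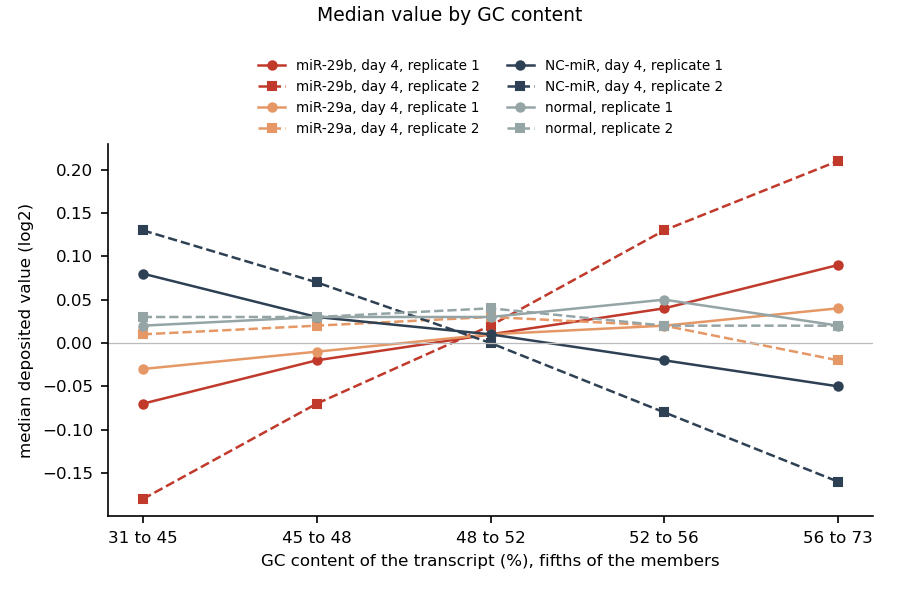
Median deposited value (log2) of the members in each of 5 bins of transcript GC content, 1 line per library, for miR-29b, miR-29a, NC-miR day 4 and normal mice. The miR-29b lines slope upwards, to 0.09 and 0.21 in the highest bin, and the NC-miR lines downwards, to -0.05 and -0.16.

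The genes of smallest p with higher values under miR-29b included both Id1 and Id3, 2 inhibitors of basic helix-loop-helix transcription factors and known targets of BMP signalling. Id1 (chromosome 2, 152736251 to 152737410) had 0.61 and 0.98 in the miR-29b libraries, against -0.97 and -0.93 in the NC-miR libraries. The log2 difference was 1.75 ± 0.20, a 3.37-fold higher level (adjusted p = 0.093). Both miR-29b libraries were high and both NC-miR libraries low, on either side of the normal mice at -0.18 and 0.08. Id3 (chromosome 4, 136143497 to 136145755) had 0.39 and 0.45 with miR-29b, against -0.82 and -1.09 with NC-miR, a log2 difference of 1.37 ± 0.19 (adjusted p = 0.14). Normal mice had -0.02 and 0.55 for Id3, which overlaps the miR-29b values. The corrected log2 differences were 1.52 for Id1 and 1.12 for Id3. Leaving out any 1 of the 4 libraries, the log2 difference of Id1 was 1.57 to 1.94 and that of Id3 1.24 to 1.5.

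Among other genes fed back by BMP or TGF-β signals, Smad6 and Smad7 lay on the same side, while Skil and Ski differed by -0.10 and 0.10. Smad6, an inhibitory Smad, had 0.04 and 0.40 with miR-29b, against -0.66 and -1.17 with NC-miR (log2 difference 1.13 ± 0.24, adjusted p = 0.303). Smad7, the other inhibitory Smad, had 0.30 and 0.04 with miR-29b, against -0.72 and -0.46 with NC-miR (0.76 ± 0.18, adjusted p = 0.335). In both genes all miR-29b values lay above all NC-miR values, and the corrected differences were 0.82 and 0.61. Id2 and Id4, chosen after their values were seen, differed by 0.39 ± 0.18 and 0.47 ± 0.26. Of the 16 members of the TGF-β list, Smad6 and Smad7 were the 2 with an unadjusted p under 0.05 (12.5%, background 6.69%). The list median was 0.09 beside 0.022 over all members. That median was -0.11 without NC-miR replicate 2, 0.32 without NC-miR replicate 1 and 0.05 without miR-29b replicate 1. The ligands Tgfb1 (-0.06 ± 0.28) and Tgfb3 (0.16 ± 0.27) and the target Ctgf (0.79 ± 0.60) overlapped between groups.

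Lgals3 encodes galectin-3, a carbohydrate-binding lectin abundant in colonocytes and macrophages. It had 0.93 and 0.96 in the miR-29b libraries, against -0.05 and -0.23 in the NC-miR libraries (log2 difference 1.08 ± 0.13, 2.12-fold, adjusted p = 0.116, corrected 0.86). The miR-29a libraries (0.03 and 0.21) and the normal ones (0.09 and -0.09) lay near NC-miR, so that miR-29b alone stood high among these 4 groups. Fbxl15, an F-box protein of a ubiquitin ligase, differed by 1.07 ± 0.14 (adjusted p = 0.116), and its corrected value was 0.61. Zfp688, Tmem203, Tnfsf12 and Rsph9 differed by 0.96, 1.00, 0.69 and 1.11, and by 0.60, 0.63, 0.38 and 0.84 after correction. Their transcripts hold 55.6 to 59.0% GC. Reads of Tnfsf12, the cytokine TWEAK, can be shared with a read-through transcript into its neighbour.

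For Rpl30 and Snord16a it was NC-miR that stood apart from the normal mice. Rpl30, a protein of the large ribosomal subunit, had -0.12 and 0.30 with miR-29b, against -1.61 and -1.56 with NC-miR (log2 difference 1.67 ± 0.23, adjusted p = 0.14, corrected 1.39). The normal mice had 0.26 and -0.15, and ribosomal protein genes have many near-identical pseudogenes that could take their reads. Snord16a is a small nucleolar RNA whose gene (chromosome 9, 64175423 to 64175521) lies within Rpl4. It had 1.70 and 2.91 with miR-29b, against -6.76 and -6.80, the floor, with NC-miR. It was at least 543-fold higher (adjusted p = 0.093), while its host Rpl4 differed by -0.04 ± 0.17. Both normal libraries were also above the floor, at 1.71 and 2.65, and such a short RNA is poorly held by an mRNA library.

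The lowest p among genes lower under miR-29b belonged to Serpina9, a serine protease inhibitor known from germinal centre B cells. Serpina9 (chromosome 12, 103994743 to 104013755) had -0.81 and -1.0 with miR-29b, against 0.44 and 0.55 with NC-miR. The log2 difference was -1.40 ± 0.16 (0.379-fold, adjusted p = 0.093), the same after correction, and -1.49 to -1.31 with any 1 of the 4 libraries left out. The miR-29a (0.33 and -0.02) and normal mice (0.44 and 0.30) lay with NC-miR. The B and plasma cell markers as a list, 14 members, had a median of -0.11, 0.05 without NC-miR replicate 2, with 0 at an unadjusted p under 0.05. Ms4a1, which encodes CD20, differed by -0.42 ± 0.36.

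Several of the other lower genes act in cell division. Ska3, a kinetochore component, had -1.24 and -0.88 with miR-29b, against 0.08 and 0.47 with NC-miR (log2 difference -1.34 ± 0.23, adjusted p = 0.259). Depdc1a, a gene of mitotic cells, had -1.38 and -0.98 with miR-29b, against 0.18 and 1.00 with NC-miR (-1.77 ± 0.34, adjusted p = 0.303). The groups did not overlap in either, and NC-miR replicate 2 was the higher of its pair. Traip, a ubiquitin ligase of the replication damage response, lay at the floor in both miR-29b libraries, a log2 difference of at least 0.99 in size. The centriole gene Cep128 differed by -0.91 ± 0.14. Tmed6, of the p24 cargo receptors, had -1.07 and -1.06 with miR-29b, against 0.32 and 0.79 with NC-miR (-1.62 ± 0.29, adjusted p = 0.264). Lipo1, Fam122b, Tinag and Apol7a differed by -0.82, -0.84, -0.89 and -0.73 on the log2 scale, and by -0.52, -0.61, -0.78 and -0.72 after correction. Lipo1 and Apol7a belong to families of similar genes that may share reads.

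**Figure D3:**
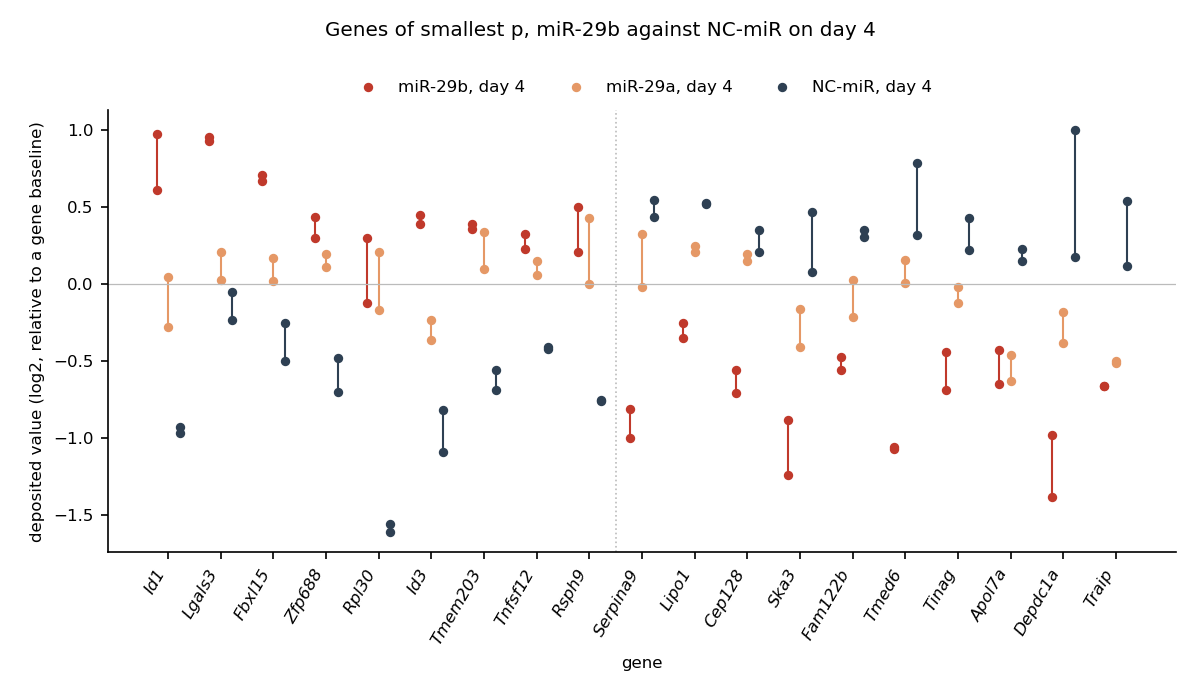
Deposited values (log2, relative to a gene baseline) of the genes of smallest p, higher left and lower right of the dotted line, leaving out Snord16a. Each gene has its 2 miR-29b, 2 miR-29a and 2 NC-miR libraries as joined points. For Id1, Lgals3, Id3 and Serpina9 the miR-29a values lie between those of miR-29b and NC-miR or beside NC-miR.

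Immediate early genes, which cells transcribe within minutes of a stimulus such as a growth factor or stress, were the list with the largest positive median. Of 18 listed genes 15 were members, 14 of them higher under miR-29b, with a median log2 difference of 1.02 beside 0.022 over all members. Of the 15, 9 had an unadjusted p under 0.05, all higher (background 6.69%), and none passed. Egr1, a zinc finger transcription factor, had 0.50 and 3.16 in the miR-29b libraries, against -0.67 and -0.22 in the NC-miR libraries (log2 difference 2.28 ± 0.85, adjusted p = 0.377). Fos, a component of the AP-1 transcription factor, had 0.78 and 2.38 with miR-29b, against -1.53 and 0.00 with NC-miR (2.34 ± 0.86, adjusted p = 0.377). Dusp1, a phosphatase that switches off MAP kinases, had 0.25 and 2.01 with miR-29b, against -1.22 and -0.34 with NC-miR (1.91 ± 0.65, adjusted p = 0.353). These 3 were chosen after their values were seen. In each, miR-29b replicate 2 was the high library and the groups did not overlap.

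The AP-1 genes Jund, Jun and Junb and the early gene Ier2, the 4 of smallest p, differed by 0.88 ± 0.21, 1.02 ± 0.25, 1.41 ± 0.38 and 1.18 ± 0.30 (adjusted p = 0.335 to 0.338). Their corrected values were 0.36, 0.86, 1.00 and 0.80. The list's median deposited value was 0.25 and 1.06 in miR-29b replicates 1 and 2, against -0.32 and -0.34 in NC-miR replicates 1 and 2, -0.09 and -0.21 with miR-29a, and 0.11 and -0.56 in normal mice. The first miR-29b library therefore lay close to 1 of the normal libraries. The median log2 difference was 1.65 without miR-29b replicate 1 and 0.62 without replicate 2. It was 1.15 without NC-miR replicate 1 and 0.90 without NC-miR replicate 2. With GC content and length removed the median was 0.80, with 7 at an unadjusted p under 0.05 (background 3.51%).

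Cell cycle genes were lower, with a median log2 difference of -0.69 over 30 members, 24 of them lower. At an unadjusted p under 0.05 there were 10, all lower (background 5.78%), and none passed. Cenpe, a kinetochore motor, had -1.38 and -0.68 with miR-29b, against 0.18 and 0.85 with NC-miR (log2 difference -1.54 ± 0.37, adjusted p = 0.335). Bub1, a kinase of the spindle checkpoint, had -1.63 and -0.67 with miR-29b, against 0.10 and 0.68 with NC-miR (-1.54 ± 0.38, adjusted p = 0.335). Top2a, the topoisomerase of dividing cells, had -1.81 and -0.65 with miR-29b, against -0.16 and 0.70 with NC-miR (-1.50 ± 0.43, adjusted p = 0.339). The groups did not overlap, with miR-29b replicate 1 lowest and NC-miR replicate 2 highest in all 3 genes. The spindle motors Kif11 and Kif20a differed by -1.47 ± 0.39 and -1.29 ± 0.34, and the proliferation marker Mki67 by -1.28 ± 0.37.

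Not all genes of the list were lower. Mcm2, a subunit of the replicative helicase, differed by 0.24 ± 0.37 and Pcna, the sliding clamp of replication, by -0.15 ± 0.26, while the nucleotide synthesis genes Rrm2 and Tyms differed by -0.41 and -0.36 and the G1 cyclin Ccne1 by 0.38. Top2a, Mki67, Pcna, Mcm2, Rrm2, Tyms and Ccne1 were chosen after their values were seen. The median deposited value of the cell cycle list was -0.97 and 0.02 in miR-29b replicates 1 and 2, against -0.10 and 0.50 in NC-miR replicates 1 and 2, so replicate 2 of miR-29b lay between the NC-miR libraries. It was -0.45 and -0.08 with miR-29a, and 0.22 and -0.08 in normal mice. The median log2 difference of miR-29a from NC-miR was -0.44. Without miR-29b replicate 1 the median difference between miR-29b and NC-miR was -0.09, and without miR-29b replicate 2 it was -1.23. It was -1.0 without NC-miR replicate 1 and -0.48 without NC-miR replicate 2. The corrected median was -0.82, with 11 lower at an unadjusted p under 0.05 (background 3.31%). In a bulk sample, fewer cells of a kind and less RNA per cell cannot be told apart.

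**Figure D4:**
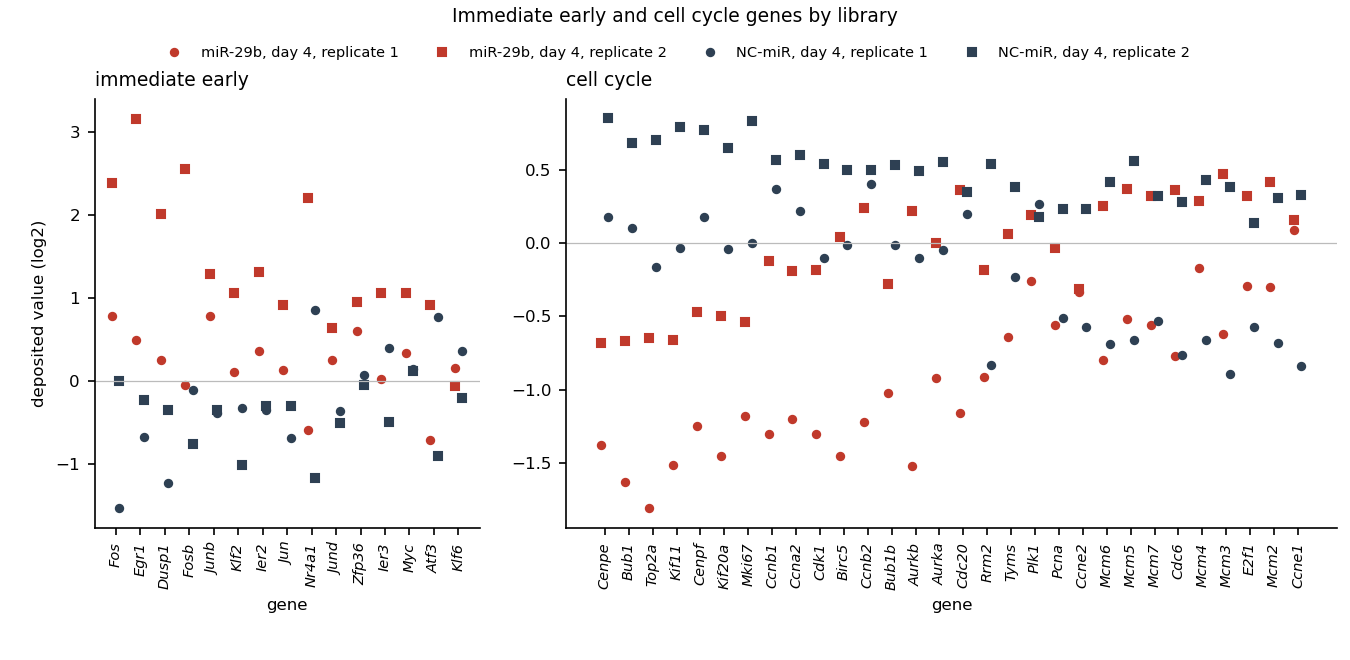
Deposited values (log2) of the 15 immediate early and the 30 cell cycle members, with miR-29b libraries in red left of the NC-miR libraries in dark blue (circles, replicate 1, and squares, replicate 2). The red squares stand high in the left panel, and in the right panel the red circles stand low from Cenpe to Aurkb while the genes at its right end overlap between groups.

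The genes that cells switch on in response to type I interferon were lower as a list. All 35 listed were members, 31 of them lower, with a median log2 difference of -0.43, 4 at an unadjusted p under 0.05 (all lower, background 5.78%) and none that passed. Ddx60, a helicase that promotes antiviral sensing, had -0.68 and -0.44 with miR-29b, against 0.89 and 0.49 with NC-miR and -2.35 and -3.03 in normal mice. Its log2 difference from NC-miR was -1.25 ± 0.27 (adjusted p = 0.303), and both treated groups were far above normal. Oasl2, of the 2′-5′ oligoadenylate synthetase family, had -0.92 and -0.03 with miR-29b, against 0.94 and 0.43 with NC-miR (-1.16 ± 0.39, adjusted p = 0.349). Herc6, the ligase that attaches ISG15 in mice, differed by -0.96 ± 0.27, the RNA sensor Ifih1 by -0.43 ± 0.19, the antiviral Ifit1 by -0.92 ± 0.62 and the ubiquitin-like Isg15 by -0.56 ± 0.45. Isg15 overlapped between groups (-0.84 and 0.17 with miR-29b, against 0.59 and -0.13 with NC-miR).

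The list's median deposited value was -0.45 and -0.09 with miR-29b, against 0.47 and -0.10 with NC-miR, -0.68 and -0.42 with miR-29a, and -1.37 and -1.60 in normal mice. NC-miR replicate 2 thus lay with the second miR-29b library. The median difference was -0.23 without miR-29b replicate 1, -0.60 without its replicate 2, -0.21 without NC-miR replicate 1 and -0.70 without NC-miR replicate 2. The 4 genes at an unadjusted p under 0.05 became 9 in a fit to the 4 libraries alone. They were 11 with quantile normalization and 2 with no moderation, all lower, with the median at -0.43 to -0.45. All features at that p, in either direction, numbered 949, 1394 and 1509 in those fits, against 1627 in the main fit. The corrected median was -0.51. The interferon-γ and antigen presentation genes, 30 members, had a median of 0.14, with 1 higher at an unadjusted p under 0.05 (background 6.69%). This was Irf8, a myeloid and B cell transcription factor (0.43 ± 0.18). The corrected median of the 30 was -0.05, with 0 at an unadjusted p under 0.05. The class II genes H2-Eb1, H2-Aa and H2-Ab1 differed by 0.46, 0.40 and 0.38, and their corrected values were 0.25, 0.28 and 0.08. Of the 30 members 18 were higher and 12 lower. The GTPase genes Gbp7, Irgm2, Igtp and Irgm1, chosen after their values were seen, differed by -0.58, -0.51, -0.43 and -0.42, and Gbp4 by 0.10. Without NC-miR replicate 2 the median of these 30 was -0.08, and 0.33 without NC-miR replicate 1.

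Among cytokines and chemokines, 10 of 25 listed were members, and Il6, Il23a and Il12b lay at the floor in all 10 libraries. Ccl20, the attractant of CCR6-bearing cells, had -0.15 and 0.26 with miR-29b, against -0.99 and -0.70 with NC-miR (log2 difference 0.90 ± 0.21, adjusted p = 0.335). Ccl8 had 1.00 and 0.12 with miR-29b, against -0.25 and -0.93 with NC-miR (1.15 ± 0.31, adjusted p = 0.338). Ccl5, a T cell attractant, differed by 0.84 ± 0.35. These 3 of the 10 had an unadjusted p under 0.05 (background 6.69%) and groups that did not overlap (background 22.7%). Their corrected values were 1.09, 1.02 and 0.55. Of the 10 members 6 were higher and 4 lower, the latter Ccl2 (-0.39), Ccl28 (-0.11), Il33 (-0.09) and Il18 (-0.07). Il1b overlapped (0.86 ± 0.38), with the list median at 0.20, and at -0.02, 0.58, 0.40 and 0.05 without NC-miR replicates 2 and 1 and miR-29b replicates 1 and 2. All 11 genes of the NF-κB feedback list were higher, with a median of 0.23 and 3 at an unadjusted p under 0.05 (background 6.69%). These were Nfkbie (0.66 ± 0.18) and Nfkbia (0.56 ± 0.20), both inhibitors of NF-κB, and Relb (0.36 ± 0.14). Tnfaip3, another inhibitor of NF-κB, was listed with the immune targets and differed by -0.22 (adjusted p = 0.698). The median transcript GC content of the 11 was 55.4% and their corrected median 0.05. After correction 8 of the 11 were higher, with Nfkbie alone at an unadjusted p under 0.05. The uncorrected median of the 11 was 0.42 and 0.19 without miR-29b replicates 1 and 2, and 0.45 and 0.16 without NC-miR replicates 1 and 2. The higher genes of the 11 then numbered 9, 9, 11 and 8. In the antimicrobial list, 13 members had a median of 0.18, 0.42 without NC-miR replicate 1, and 0 at an unadjusted p under 0.05.

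Of the epithelial genes found in the files, 28 of 29 absorptive colonocyte and 13 of 14 goblet cell genes were members. Fibroblast (14 of 14) and smooth muscle genes (14 of 15) were members in a like share, so these counts do not place the tissue. Guca2a, which encodes the peptide guanylin, had 0.86 and 1.06 with miR-29b, against 0.18 and -0.38 with NC-miR (log2 difference 1.06 ± 0.22, adjusted p = 0.303, corrected 0.74). Aqp4, a water channel, had 0.46 and -0.18 with miR-29b, against 1.13 and 0.97 with NC-miR (-0.92 ± 0.22, adjusted p = 0.335, corrected -0.63). The groups did not overlap in either gene. The carbonic anhydrases Car1 and Car2 differed by 0.80 ± 0.29 and 0.31 ± 0.12. These 2 with Guca2a were the 3 higher colonocyte genes at an unadjusted p under 0.05 (10.7%, background 6.69%). The median of the 28 was 0.17, and 0.05 or 0.07 without miR-29b replicate 1 or NC-miR replicate 1.

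All 13 goblet cell genes were higher, with a median of 0.29 and 3 at an unadjusted p under 0.05 (background 6.69%). These were Tff3, the trefoil peptide of mucus (0.51 ± 0.16), Fcgbp, a mucus protein (0.41 ± 0.16), and Agr2, a disulfide isomerase needed for mucin folding (0.39 ± 0.15). The corrected median was 0.14, with Agr2 at an unadjusted p under 0.05. The uncorrected median was 0.54 without miR-29b replicate 1 and 0.19 without its replicate 2. It was 0.45 without NC-miR replicate 1 and 0.23 without NC-miR replicate 2. The crypt stem and Wnt target list had 11 members, 6 higher and 5 lower, with a median of 0.17 (corrected 0.05). That median was 0.31 without miR-29b replicate 1, -0.01 without its replicate 2 and 0.06 without NC-miR replicate 1. Smoc2 and Cd44 were among the lower, at -0.25 and -0.23. Lgr5 and Ascl2, not members, had 4 and 2 libraries at the floor and differed by -0.52 and -0.24. The members of smallest p were mixed: Ephb2 and Prom1 differed by 0.46 ± 0.15 and 0.54 ± 0.21 and Znrf3, a Wnt receptor ligase, by -0.47 ± 0.15. Prom1 alone of these 3 had an unadjusted p under 0.05 after correction. The hormone Pyy (0.62 ± 0.18) and the granule protein Chga (0.49 ± 0.19) led 11 enteroendocrine members with a median of 0.15, -0.10 without miR-29b replicate 2 and -0.02 without NC-miR replicate 2. The corrected values of Pyy and Chga were 0.23 and 0.19. Dclk1 was the 1 tuft cell member, at -0.17 ± 0.17 (corrected 0.06).

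Markers of the other cell types differed between the 2 NC-miR libraries. The squamous keratin Krt14 had -0.07 and 0.19 with miR-29b, against 6.05 and -0.50 with NC-miR. Krt13 had -0.51 and -0.45 with miR-29b, against 4.97 and -0.58 with NC-miR. The median deposited value of the 4 squamous members of 14 listed was -0.15 and 0.01 with miR-29b, against 4.09 and -0.54 with NC-miR, and the other 10 lay at the floor in 9 or 10 libraries. NC-miR replicate 1 was thus the high library. The median log2 difference was -2.12, 0.33 without NC-miR replicate 1 and -4.34 without NC-miR replicate 2. The α-globin Hba-a1, of which mice have 2 near-identical copies, had -1.73 and -3.13 with miR-29b, against -2.0 and 1.57 with NC-miR. The 3 erythroid and platelet members of 8 had a median log2 difference of -1.80, 0.08 without NC-miR replicate 2 and -3.73 without NC-miR replicate 1. NC-miR replicate 2 was thus the high library of the 4, while both normal libraries were high too, at 2.56 and 2.30 for Hba-a1. The part of these differences in the other results was not tested, beyond the values given without each library.

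The median deposited value of 14 smooth muscle genes was 0.13 and 0.09 with miR-29b, against 0.05 and -0.40 with NC-miR, with a median log2 difference of 0.29, 0.05 without NC-miR replicate 2 and 0.52 without NC-miR replicate 1. Of 13 endothelial members (median 0.32), 3 were higher at an unadjusted p under 0.05 (background 6.69%). Vwf, the von Willebrand factor, had 0.46 and 0.49 with miR-29b, against -0.10 and -0.44 with NC-miR (0.74 ± 0.16, adjusted p = 0.303). Plvap, of endothelial diaphragms, differed by 0.96 ± 0.25. The endothelial median was 0.17 without NC-miR replicate 2 and 0.54 without NC-miR replicate 1. Among T and NK cell genes (8 members, median 0.51), 3 were higher at an unadjusted p under 0.05 (background 6.69%). Cd3d, a chain of the T cell receptor complex, had 0.38 and 0.83 with miR-29b, against -0.30 and -0.35 with NC-miR. Its log2 difference was 0.93 ± 0.19 (adjusted p = 0.303, corrected 0.87), and 1 NC-miR library was at the floor. Lck, the kinase of that receptor, differed by 0.65 ± 0.18 and Il7r by 0.58 ± 0.23. Of the 8 members 7 were higher and 1 lower. The lower was Gzma, a protease of cytotoxic cells (-0.57, adjusted p = 0.612), and its groups did not overlap. The T and NK median was 0.25 without NC-miR replicate 2, and Cd8a and Foxp3 lay at the floor in all 10 libraries.

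The remaining markers gave medians of 0.11 in 14 fibroblast, 0.13 in 17 monocyte and macrophage, 0.20 in 6 dendritic cell, 0.21 in 9 enteric neuron and glia, and 0.04 in 10 adipocyte members. After correction they were 0.13, 0.01, 0.06, 0.19 and -0.24. Without NC-miR replicate 2 they were -0.10, -0.03, 0.25, -0.18 and -0.29, and without NC-miR replicate 1 they were 0.42, 0.43, 0.60, 0.56 and 0.29. Without miR-29b replicate 1 they were -0.04, 0.10, 0.34, 0.11 and 0.55, and without miR-29b replicate 2 they were 0.29, 0.23, 0.07, 0.26 and -0.49. The 3 neutrophil members, S100a8, S100a9 and Retnlg, had a median of 0.83, and 0.54 without miR-29b replicate 2. Retnlg differed by 0.01 ± 0.51, and the neutrophil receptors Csf3r and Cxcr2 lay at the floor in all 10 libraries. S100a9 (1.54 ± 0.72) and S100a8 (0.83 ± 0.94), which epithelium also makes in colitis, did not overlap between groups. S100a9 had 0.65 and 1.55 with miR-29b, against -1.03 and 0.15 with NC-miR. Of the mast cell and eosinophil list, 2 members had a median of 0.24: the chymase Cma1 differed by 0.73 ± 0.25 and the receptor Kit by -0.25 ± 0.16. That median was 0.10 without NC-miR replicate 2 and 0.37 without NC-miR replicate 1.

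**Figure D5:**
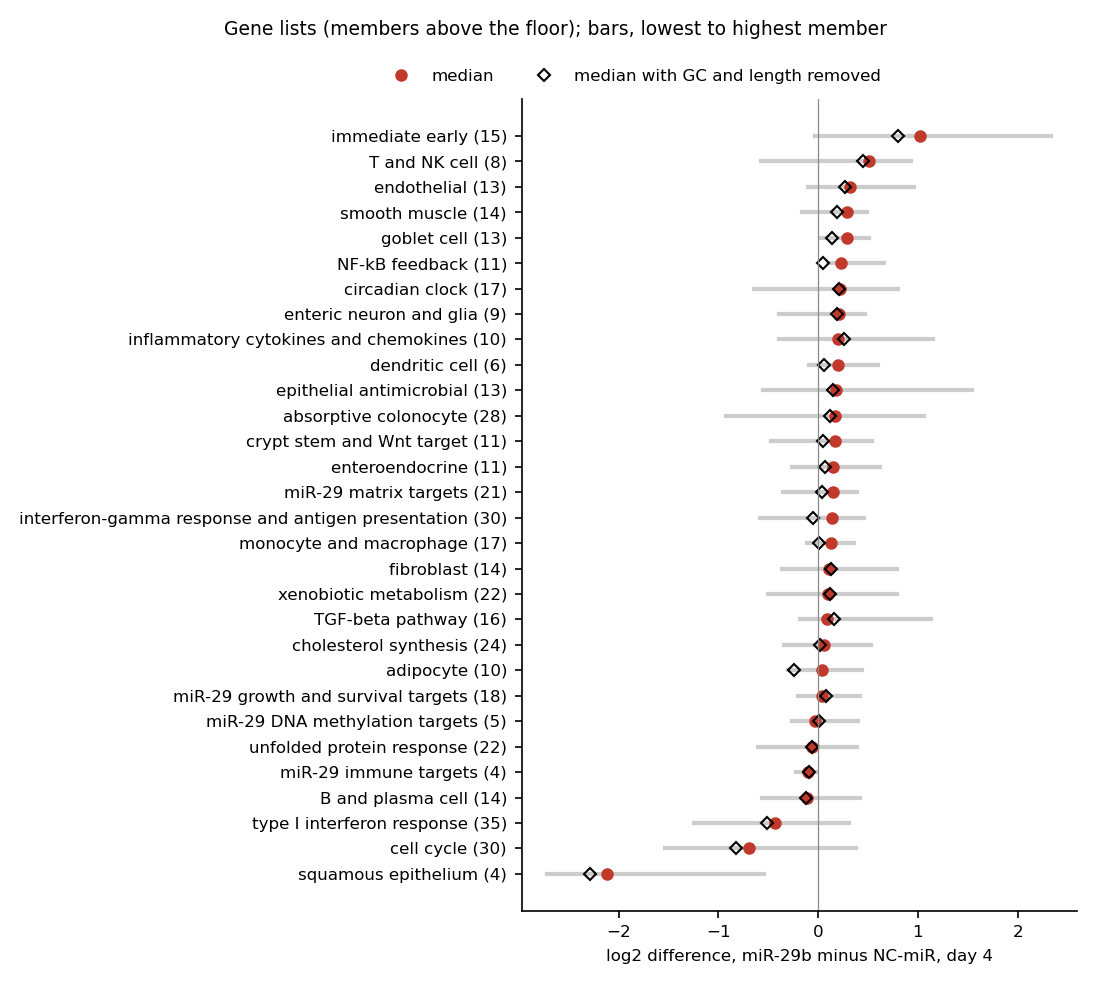
Median log2 difference, miR-29b minus NC-miR, of each gene list with at least 4 members (red points), with the median after removing GC content and length (open diamonds) and the range of the members (grey bars). Immediate early genes lie highest, at 1.02, and squamous, cell cycle and type I interferon genes lowest.

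Circadian clock genes passed the test against normal mice in both treated groups, 8 higher and 3 lower with miR-29b (background 0.337% and 0.153% of features) and 7 higher and 3 lower with NC-miR (0.268% and 0.115%), but none passed between the treated groups. The 17 members had a median of 0.22 between those groups, and 0.12 without NC-miR replicate 2. In the main fit 4 were higher and 1 lower at an unadjusted p under 0.05 (background 6.69% and 5.78%). Gm129 (Ciart), a clock repressor, had 2.24 and 1.92 with miR-29b, against 1.05 and 1.51 with NC-miR (0.80 ± 0.22, adjusted p = 0.339) and -2.23 and -2.22, the floor, in normal mice. Clock itself had -0.25 and -0.83 with miR-29b, against 0.02 and 0.18 with NC-miR (-0.64 ± 0.20, corrected -0.27). Cholesterol synthesis genes had a median of 0.06 over 24 members, with 3 higher at an unadjusted p under 0.05 (12.5%, background 6.69%) and 0 after correction. The mevalonate pathway enzymes Pmvk and Mvd differed by 0.53 and 0.40 on the log2 scale. The cholesterol median was -0.08 without NC-miR replicate 2 and 0.29 without NC-miR replicate 1. The unfolded protein response list (22 members) had a median of -0.06, and 0.04 without miR-29b replicate 1. The xenobiotic list (22 members) had a median of 0.10, -0.07 without NC-miR replicate 1 and 0.25 without NC-miR replicate 2. At an unadjusted p under 0.05, 3 were higher and 1 lower (13.6% and 4.5%, background 6.69% and 5.78%). Ugt1a1, whose last exons are shared within its family, differed by 0.53 ± 0.14 the cytochrome Cyp2s1 by 0.60 ± 0.16, the glutathione transferase Gsta4 by 0.55 ± 0.19 and the glucuronosyltransferase Ugt2b34 by -0.50 ± 0.17.

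Beyond the lists, 79 members were above the floor in both miR-29b libraries and at it in both NC-miR libraries, and 56 showed the reverse. Most of these steps were small: 7 and 5 reached 1 on the log2 scale, and the medians were 0.40 and -0.37, as lower bounds of size. Among the first were Snai1, a repressor of epithelial genes (0.82 and 0.25 with miR-29b, against -0.16 and -0.19 with NC-miR), the cytokine Lif (0.23 and 0.48 with miR-29b, against -0.06 and -0.10 with NC-miR) and the chemokine Ccl22 (0.34 and 0.11 with miR-29b, against -0.36 and -0.40 with NC-miR). Among the reverse set were the mitotic spindle gene Aspm (-0.55 and -0.55 with miR-29b, against -0.05 and 0.67 with NC-miR) and the DNA repair genes Fancd2 (-0.52 and -0.52 with miR-29b, against -0.10 and 0.43 with NC-miR) and Gen1 (-0.33 and -0.32 with miR-29b, against 0.19 and 0.40 with NC-miR). Ghrl, which encodes ghrelin, had -0.05 in both miR-29b libraries, against 0.37 and 0.39 with NC-miR. These genes were chosen after their values were seen. The short RNAs Mir678 (4.74 and 4.71 with miR-29b, against a floor of -5.77 and -5.81 with NC-miR) and Snora33 (the floor of -3.88 and -3.88 with miR-29b, against 3.22 and 2.82 with NC-miR) differed by at least 10.51 and 6.90 in size on the log2 scale, but the miR-29a group had 1 library on either side for both.

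The miR-29a mice differed from the miR-29b mice by the microRNA alone, per the labels. No feature of 13051 passed between them, while 970 (7.43%) reached an unadjusted p under 0.05. The smallest adjusted p was 0.665. Higher under miR-29b than under miR-29a were Lgals3 (log2 difference 0.82 ± 0.13), Guca2a (1.08 ± 0.22) and Mgat4c, a glycosyltransferase (0.76 ± 0.14). Lower were Serpina9 (-1.06 ± 0.16), Epyc, a matrix proteoglycan (-1.15 ± 0.18, a lower bound in size since both miR-29b libraries were at the floor), Iqcb1, of the ciliary base (-0.75 ± 0.13), and Dock11, an activator of Cdc42 (-0.98 ± 0.19). Id1 and Id3 differed by 0.92 ± 0.20 and 0.71 ± 0.19 from miR-29a, and 8 of 15 immediate early genes had an unadjusted p under 0.05. Cell cycle and interferon members gave 0 and 1, with median differences of -0.24 and 0.33. Both microRNA groups share the NC-miR libraries, so their differences from NC-miR are not independent.

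Set against the normal mice, 64 features passed in the miR-29b group (0.49%), 44 higher (0.337%) and 20 lower (0.153%), and 50 in the NC-miR group (0.383%), 35 higher (0.268%) and 15 lower (0.115%). The 2 comparisons share the normal libraries. Lgals3 rose in miR-29b mice by 0.95 on the log2 scale relative to normal (adjusted p = 0.0355), while its difference in NC-miR mice was -0.14 (adjusted p = 0.667). Serpina9 fell in miR-29b mice by 1.28 (adjusted p = 0.0231), with 0.12 in NC-miR mice (adjusted p = 0.758). For Rpl30 and Tmem203 it was NC-miR that lay below normal, by -1.64 (adjusted p = 0.0338) and -1.08 (adjusted p = 0.0451), with 0.03 and -0.08 in miR-29b mice. Ddx60 rose in both, by 2.13 with miR-29b (adjusted p = 0.0226) and 3.38 with NC-miR (adjusted p = 0.00267), and so did Oasl2, by 2.54 (adjusted p = 0.0475) and 3.70 (adjusted p = 0.0101). Of the 35 interferon genes, 4 passed in the miR-29b group and 9 in the NC-miR group. Ccl8 and Car1 passed with miR-29b, by 2.45 (adjusted p = 0.0226) and 2.05 (adjusted p = 0.0336), with 1.30 and 1.25 in NC-miR mice (adjusted p = 0.121 and 0.119).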

How the data were processed

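Libraries were stranded mRNA libraries made from total RNA of colorectum, per the labels' protocols. The submitters' processing notes name mm10, Cuffnorm 2.2.1, SAMtools 0.1.19, Bowtie2 2.2.3 and TopHat2 2.0.13, and strand use in counting is not given in the sources used here. The authors deposited 1 value column, which the headers call FPKM although it holds log2 ratios of a gene's level to its own baseline. Levels and depth are therefore unknown. In each library 9322 features shared 1 constant, read as the floor. After subtracting it, libraries sharing a feature's lowest value (within 2e-05) were taken to be at the floor if 2 or more did so. Values at the floor make a difference a lower bound, and their small spread can make p too small. A library had 12680 to 12940 features above the floor.

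The 13051 features with both libraries of any group above the floor were tested with limma 3.58.1 in R 4.3.3, with 5 group means, 10 libraries, 5 residual and 3.26 prior degrees of freedom, 2-sided p, and Benjamini-Hochberg adjustment over the features tested, called under 0.05. The fit was tested on simulated data. Errors are limma standard errors. Transcript GC content, length and 3′ UTRs came from GENCODE vM21, for all but 136 tested features. The correction was a spline of 4 degrees of freedom on each property per library, chosen after seeing the data. Of 599 genes in 34 lists, 592 were found. The members and lists were chosen with earlier results of these data known, and lists are described by counts and medians with no test. Genes named were those called or, as none was, the 10 of smallest p in each direction (5 for miR-29a), up to 4 of smallest p per list and a fixed set. Alternatives were other fits, filters, scalings, a replicate block and leaving out each library.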

Additional observations from a re-analysis of the deposited data

How the results depend on the processing

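The count of features passing between miR-29b and NC-miR was 0 with no filter, with features above the floor in all 4 libraries, with libraries centred on their medians, with the floor set to 0, with robust moderation and with GC content and length removed. It was 3 in a fit to the 4 libraries compared (Mir678, Snora33 and Snord16a), 1 with quantile normalization (Snord16a) and 1 with no moderation (Ghrl), and 0 to 4 when 1 library was left out. Without NC-miR day 4 replicate 2 the 4 were Krt13, Krt14, Krt78 and Spink5, without miR-29b replicate 2 the 1 was Snhg9, and without either NC-miR day 2 library it was Snord16a. Between miR-29b and miR-29a the count was 2 in a fit to those 4 libraries and 0 to 1 with a library left out, and 0 otherwise. Features at an unadjusted p under 0.05 numbered 1627 in the main fit, 949 in the 4-library fit, 880 with GC content and length removed, 2452 and 886 without miR-29b replicate 1 and 2, and 972 without NC-miR day 4 replicate 2. The cause of these changes was not tested.

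The list medians ranged over left-out libraries from -0.15 to 0.37 for matrix targets, -1.23 to -0.09 for cell cycle genes and 0.62 to 1.65 for immediate early genes. The main fit called 0 features between miR-29b and NC-miR and 0 between miR-29b and miR-29a, so there was no call to reverse. Of 3867 gene values under alternatives, 89 had another sign than in the main fit, in 46 of 185 genes.

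With the replicate number as a block, the count was 0 with and without GC content and length removed, and in this balanced design the block cannot move a difference, so list medians bear on nothing here. Immediate early genes at an unadjusted p under 0.05 were 11 (9 without the block), cell cycle genes 12 (10 without) and all features 1389. Differences between replicates 1 and 2 correlated by 0.105 between miR-29b and NC-miR and by -0.289 to 0.12 over the 10 pairs of groups. Such values cannot decide whether the numbers pair the samples, since a shared effect could be small beside other differences between libraries. Depth is unknown, and 2 libraries a group limit the precision.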
